A study of Mus musculus with 6 samples.

Results

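The core loop of the circadian clock was followed in hearts of tail-suspended and sham mice through 10 genes, Arntl, Clock, Npas2, Per1, Per2, Per3, Cry1, Cry2, Nr1d1 and Nr1d2. They were taken by the gene name given to each probe on the array, and they held 13 of the 55681 probes and 10 of the 28909 named genes. In tail-suspension a mouse hangs by the tail with its hindlimbs unloaded, a stand-in for microgravity on the ground. Total RNA from cardiac muscle of 3 male C57BL/6 mice suspended for 28 days, and of 3 male C57BL/6 sham mice kept and fed alike in the same room without suspension, was labelled with Cy3 and hybridised to 6 Agilent arrays, 1 mouse to an array. The labels place the start of suspension at 10 weeks of age and also give the age as 11 weeks, for both groups, and no drug or transgene is named for these mice. The hour at which each heart was taken is not given in the sources used here, so that a difference in collection time and a difference made by suspension cannot be told apart for any gene of the clock, and every array is shown.

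In the loop, ARNTL (also called BMAL1) pairs with CLOCK or NPAS2 and switches on the Per and Cry genes through short DNA elements called E-boxes, and the PER and CRY proteins then block that pair. The same pair switches on Nr1d1 and Nr1d2, whose products REV-ERB alpha and REV-ERB beta repress Arntl through elements that they share with the ROR activators. In mammalian heart these transcripts rise and fall over the day, with Arntl in opposite phase to the REV-ERB genes, and Per1 is also induced directly by glucocorticoid hormones.

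Levels below are log2 processed intensities relative to the 75th percentile of their own array, so that 0 is the 75th percentile, and a level is compared only between arrays for the same probe. A probe entered the test when all 3 arrays of sham, of tail-suspension or of both measured it well above background. All 7 cardiomyocyte markers were well above background on all arrays, as cardiac muscle should show. Summed levels of the markers did not overlap between the groups for 4 of 9 cell types. Of all tested genes, 46.4% did not overlap and 21.2% were called in either direction. Summed neutrophil markers ran from 0.76 to 1.08 in sham and from 3.12 to 5.63 in tail-suspension, with 2 of 4 markers called higher and Elane at -0.30. Summed fibroblast markers ran from 7.76 to 7.90 and from 7.98 to 8.23, with none of 4 called, Col1a1 at -0.95 and Tcf21 at -0.03. Red cell markers summed to 8.74 to 9.43 and 6.72 to 8.42, with none called, and endothelial markers to 5.17 to 5.29 and 4.76 to 4.89, with 2 of 4 called lower and Pecam1 at 0.19. For cardiomyocytes, skeletal muscle, smooth muscle, macrophages and adipocytes the sums overlapped. Of the 7 cardiomyocyte markers 1 was called lower, Actc1 at -0.33 (adjusted p = 0.0364 by limma), and Nppa was at 1.45 without passing. Myh6 differed by -0.09 on its brighter probe and by -1.47 on a dimmer one (adjusted p = 0.603 and 0.00957 by limma). Of the skeletal muscle markers, Ckm and Acta1, which heart also expresses, were well above background on all arrays, and Myh1 and Myh4 on none. In a bulk tissue, fewer cells of a type and less RNA per cell cannot be told apart, and the part of these cells in the results below was not tested.

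Short DNA elements tied to the loop were looked for in the promoters. RefSeq promoters (GRCm38.p6, from 250 bases before the start of transcription to 50 after) were found for 9 of the 10 genes. Per2 was the gene without a promoter here and was not searched. The promoters found were searched on both strands for the E-box CACGTG, the ROR and REV-ERB half-site AGGTCA and the D-box TTATGTAA or TTATGCAA. Only these letters were matched, without the bases beside them, and binding was not tested. The D-box is bound by the clock outputs DBP, TEF, HLF and NFIL3. Of the 32851 promoters in the table, 7.15% held the E-box, 16.3% the half-site and 1.66% the D-box. Per1 held all 3, and its stretch is shown because Per1 was among the genes that rose. Per3 held a pair of D-boxes, Cry1 an E-box and Nr1d2 a half-site, and they are shown because each carries a different one of the searched sequences. Capitals mark the matched letters.
Per1, chr11:69098769-69098938, plus strand: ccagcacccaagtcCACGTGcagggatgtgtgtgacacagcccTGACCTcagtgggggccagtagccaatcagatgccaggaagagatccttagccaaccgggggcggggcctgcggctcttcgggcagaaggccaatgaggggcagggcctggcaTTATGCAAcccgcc
Per3, chr4:151044806-151044885, minus strand: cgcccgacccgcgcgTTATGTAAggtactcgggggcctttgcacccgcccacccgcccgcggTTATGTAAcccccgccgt
Cry1, chr10:85185085-85185144, minus strand: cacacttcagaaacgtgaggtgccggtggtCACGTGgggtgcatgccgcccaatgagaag
Nr1d2, chr14:18239154-18239213, minus strand: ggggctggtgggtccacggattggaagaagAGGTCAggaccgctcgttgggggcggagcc
In the Per1 stretch the E-box began at position -166 from the start of transcription, the half-site, which reads TGACCT on this strand, at -137, and the D-box at -24. The other Per1 start held none of the 3. A half-site was also found at position 32 of the downstream Arntl start and at -119 of a Clock start. Npas2, Cry2 and Nr1d1 held none of these letters in their windows.

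Per1, Per2 and Cry2 rose in tail-suspension, no gene of the loop fell, and Per1 and Per2 were the genes with the larger changes. Per1 was 3.42-fold, Per2 3.97-fold and Cry2 1.47-fold higher. Arntl, Clock, Per3, Nr1d1 and Nr1d2 did not pass the test, and Npas2 and Cry1 were too dim to be tested. Of the 8 tested genes, 3 were thus higher and 0 lower (limma, adjusted p under 0.05). The background was 10.6% of the 17140 tested genes higher and 10.5% lower, or 21.2% in either direction. At an unadjusted p under 0.05 by limma the 8 genes again gave 3 and 0. There, 3235 of the 17140 tested genes were higher and 3509 lower. Groups did not overlap for 3 of the 8, whereas 46.4% of all tested genes did not overlap. The median difference was 0.33 on the log2 scale over the 8 genes and -0.01 over all tested genes. The methods' t-test called 0 of the 8 with Benjamini-Hochberg adjustment and 3 without it. Over all 28032 tested probes it called 1533 higher and 1250 lower with the adjustment, and 4808 and 4690 without it.

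**Figure D1:**
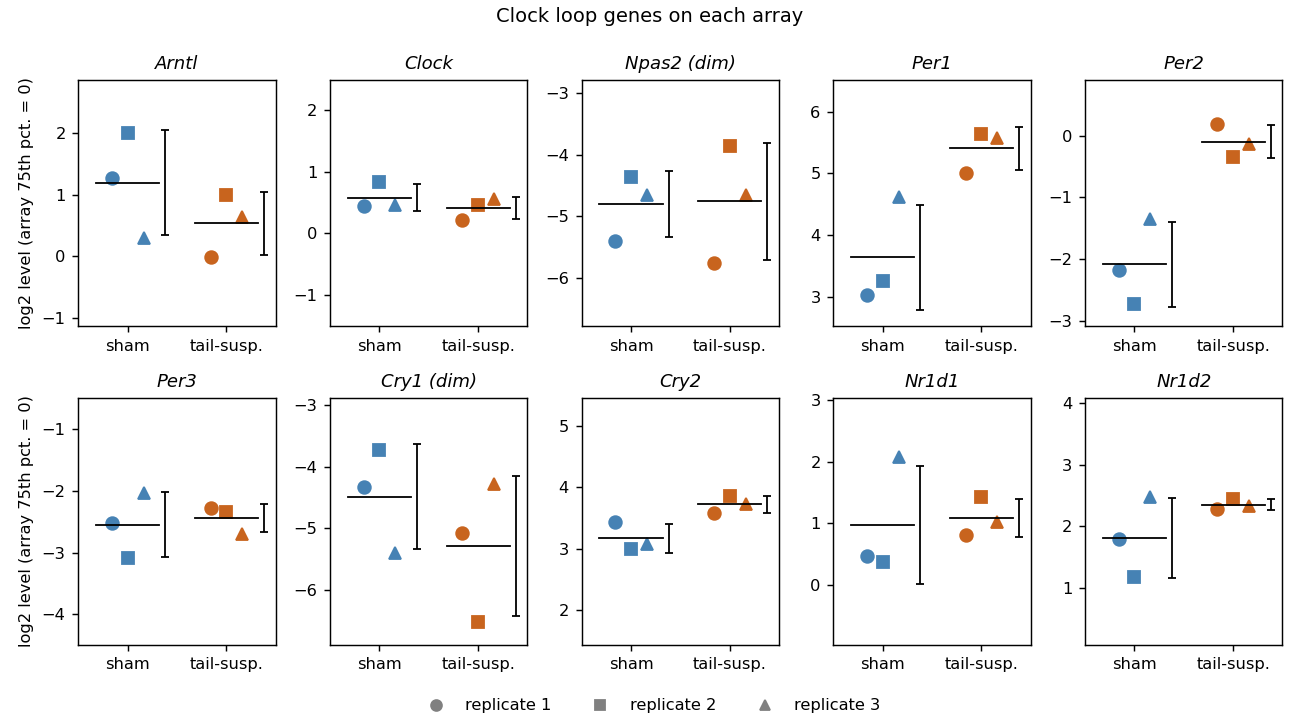
Log2 level of each clock loop gene (y axis, array 75th percentile at 0, each panel spanning the same number of log2 units) on the 3 sham (blue) and 3 tail-suspension (orange) arrays, with the group mean as a line, the SD as a bar and the replicate by symbol. Per1, Per2 and Cry2 sit above all sham arrays in tail-suspension; "dim" marks genes not well above background on every array of either group.

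Arntl, the partner that every activator pair of the loop needs, gave levels of 1.28, 2.01 and 0.30 on sham arrays 1, 2 and 3 and of -0.02, 0.99 and 0.64 on tail-suspension arrays 1, 2 and 3. The groups overlapped, with sham 3 below tail-suspension 2 and 3. Sham had a mean of 1.20 ± 0.86 (SD, n = 3) and tail-suspension one of 0.54 ± 0.51 (SD, n = 3), a difference of -0.66 on the log2 scale (standard error 0.45, 95% interval -1.74 to 0.42, adjusted p = 0.328 by limma). Without sham 3 the difference was -1.11 (adjusted p = 0.0922 by limma), without sham 2 -0.25 and without tail-suspension 1 -0.38, so that its size rested on single mice.

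Clock, the partner of ARNTL and a histone acetyltransferase, varied less. Its levels were 0.45, 0.83 and 0.46 in sham and 0.22, 0.45 and 0.55 in tail-suspension, with overlap. The difference was -0.17 (standard error 0.15, 95% interval -0.51 to 0.18, adjusted p = 0.434 by limma). Npas2, which can replace CLOCK, was well above background on 1 sham and 1 tail-suspension array and is given no fold.

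Per1 encodes a PER repressor that responds quickly to outside signals. Its processed intensity was 2626, 3061 and 7411 on sham arrays 1 to 3 and 10936, 18763 and 17987 on tail-suspension arrays 1 to 3, or log2 levels of 3.03, 3.26 and 4.62 against 5.00, 5.64 and 5.58. All tail-suspension arrays lay above all sham arrays, and sham 3 was the sham array nearest to them. The difference was 1.77 (standard error 0.42, 95% interval 0.76 to 2.78, adjusted p = 0.0324 by limma), and the two-sided exact permutation p was 0.1, the smallest that 3 arrays against 3 allow. Its second probe, designed on the clone AK081813, was well above background on 0 sham arrays and 1 tail-suspension array. The call was lost when sham 1 (1.47, adjusted p = 0.0886 by limma), sham 2 (1.59, 0.11), tail-suspension 1 (1.98, 0.0553), tail-suspension 2 (1.66, 0.0709) or tail-suspension 3 (1.69, 0.0971) was left out, and held without sham 3.

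Per2 encodes a PER repressor that mice need for a lasting rhythm. Its intensity was 71.3, 48.3 and 118 in sham and 391, 297 and 341 in tail-suspension, or levels of -2.18, -2.73 and -1.35 against 0.20, -0.34 and -0.14. The groups did not overlap, and sham 3 was again the highest of the sham arrays. The difference for Per2 was 1.99 (standard error 0.34, 95% interval 1.18 to 2.80, adjusted p = 0.0134 by limma), and the rise held with each of the 6 arrays left out, at 1.67 or more. Sham 1 to 3 and tail-suspension 1 lay in the same row of the slide and tail-suspension 2 and 3 in the other. Within the shared row, tail-suspension 1 was 2.28 above the sham mean for Per2, 1.37 for Per1 and 0.41 for Cry2, and with the row as a block the adjusted p values by limma were 0.089, 0.262 and 0.309.

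Per3, the PER gene that the loop needs least, did not pass. It gave levels of -2.52, -3.09 and -2.04 in sham and -2.27, -2.34 and -2.69 in tail-suspension, all of the latter within the range of the sham arrays. Its difference was 0.11 (standard error 0.27, 95% interval -0.52 to 0.75, adjusted p = 0.781 by limma).

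Cry2 encodes a CRY protein that joins PER in blocking the ARNTL pair. The brighter of its probes, on transcript variant NM_009963, gave 3.44, 2.99 and 3.08 in sham and 3.58, 3.85 and 3.73 in tail-suspension. The groups did not overlap, but sham 1 lay close under tail-suspension 1. The difference was 0.55 (standard error 0.14, 95% interval 0.21 to 0.89, adjusted p = 0.0403 by limma). A dimmer probe on variant NM_001113333 differed by 0.94 (standard error 0.25, adjusted p = 0.0446 by limma), at -0.05, -0.58 and 0.40 in sham and 0.61, 0.97 and 1.00 in tail-suspension. Without sham 2 (0.46, adjusted p = 0.13 by limma), sham 3 (0.51, 0.0953), tail-suspension 1 (0.62, 0.0652), tail-suspension 2 (0.49, 0.084) or tail-suspension 3 (0.54, 0.11) the call of the brighter probe was lost. Cry1, its close relative and the other CRY repressor, was well above background on 2 sham arrays and 0 tail-suspension arrays and was not tested.

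Nr1d1 was read by a probe that crosses a splice junction, since its 60 bases span 503 bases of the mm9 genome on chromosome 11 (98630526 to 98631028, minus strand), where 1 of its 3 reading frames is free of stops.
Nr1d1 probe: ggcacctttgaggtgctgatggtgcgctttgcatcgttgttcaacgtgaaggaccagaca
The levels of Nr1d1 were 0.46, 0.38 and 2.08 in sham and 0.81, 1.42 and 1.02 in tail-suspension. Sham 3 was the highest of all 6 arrays, and all tail-suspension arrays lay between it and the other sham arrays. The difference of 0.11 (standard error 0.46, 95% interval -0.98 to 1.21, adjusted p = 0.875 by limma) did not pass. Without sham 3 it was 0.67, and without sham 1, sham 2 or tail-suspension 2 it turned to -0.14, -0.18 or -0.05. Thra, the thyroid hormone receptor gene that overlaps the end of Nr1d1 on the opposite strand, differed by -0.12 (adjusted p = 0.379 by limma) on its brighter probe. Its dimmer probe went the other way, by 0.19 (adjusted p = 0.207 by limma).

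Nr1d2, the second REV-ERB gene, gave 1.79, 1.17 and 2.47 in sham and 2.27, 2.44 and 2.33 in tail-suspension. Sham 3 alone among the sham arrays reached the level of the tail-suspension arrays, so the groups overlapped. The difference was 0.54 (standard error 0.30, 95% interval -0.19 to 1.26, adjusted p = 0.239 by limma) and 0.52 by its second probe. Without sham 3 it was 0.87 (adjusted p = 0.0458 by limma), past the threshold, and without sham 2 it was 0.22.

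**Figure D2:**
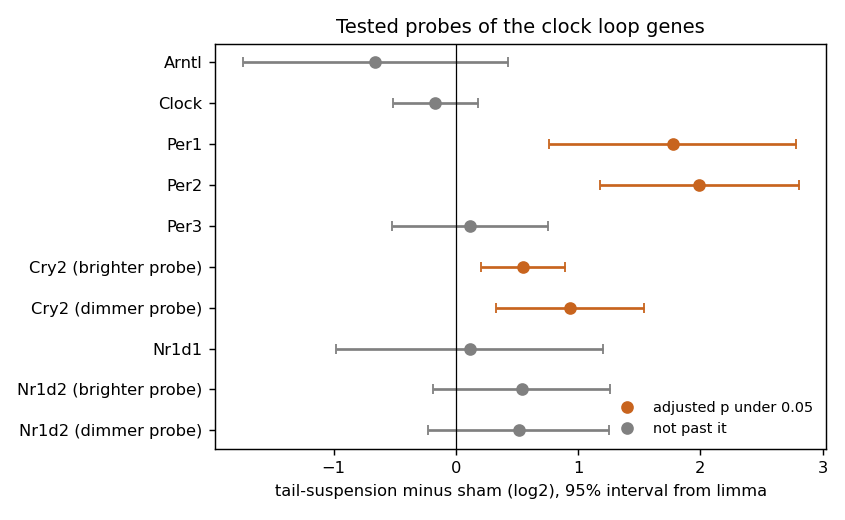
Log2 difference, tail-suspension minus sham (x axis), for each tested probe of the clock loop genes (y axis), with 95% intervals from limma and an adjusted p under 0.05 in orange. Per1, Per2 and both Cry2 probes lie to the right of 0, and the intervals of the other probes cross it.

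Sham mice differed among themselves in these genes more than in most others. The SD over the 3 sham arrays was above that of 99.5% of tested genes for Arntl and Per1, 99.1% for Per2, 97.8% for Per3, 99.8% for Nr1d1 and 98.8% for Nr1d2, but 78.7% for Clock and 81.8% for Cry2. The range in sham was larger than that in tail-suspension for all 8 genes, compared with 44.7% of all 17120 genes with values. Over the 8 genes the median range was 1.34 in sham and 0.48 in tail-suspension, and over all genes 0.23 and 0.26. These are descriptions of 3 mice a group, and the hour of collection of each mouse is unknown.

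Sham 2 and sham 3 stood at opposite ends for several of these genes. Sham 3 was the lowest sham array for Arntl (-0.90 from the sham mean) and the highest for Per1 (0.98), Per2 (0.73), Per3 (0.51), Nr1d1 (1.11) and Nr1d2 (0.66), while sham 2 was the highest for Arntl (0.81) and the lowest for Per2, Per3, Nr1d1 and Nr1d2. That made 5 of the 8 genes with sham 2 and sham 3 at opposite ends in either order, compared with 5852 of 17120 tested genes, or 34.2%. Sham 2 and sham 3 were picked from the levels of these same genes, so the count is a description and not a test. Genes of the same loop are also not separate observations. Of the tail-suspension arrays, 3 of 3 lay inside the sham range for Per3, Nr1d1 and Nr1d2, 2 of 3 for Arntl and Clock, and 0 of 3 for Per1, Per2 and Cry2. For Per1 and Per2 the tail-suspension arrays thus lay beyond even sham 3, whereas for Nr1d1 they did not reach it.

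**Figure D3:**
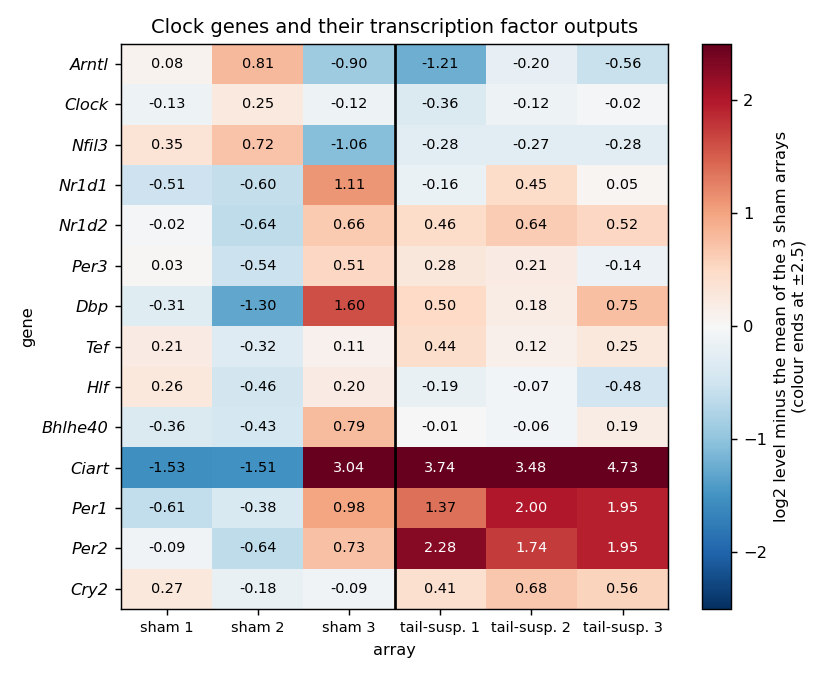
Log2 level of the clock loop genes and output factors (rows) on each array (columns) minus the mean of the 3 sham arrays. Sham 3 and sham 2 lie at opposite ends for Arntl, Nfil3, Nr1d1, Nr1d2, Per2, Per3, Dbp and Bhlhe40, and not in the other rows. The tail-suspension arrays lie above all sham arrays for Per1, Per2, Cry2 and Ciart. For Ciart, sham 1 and sham 2 were not well above background, so its separation is not a measure of a change.

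**Figure D4:**
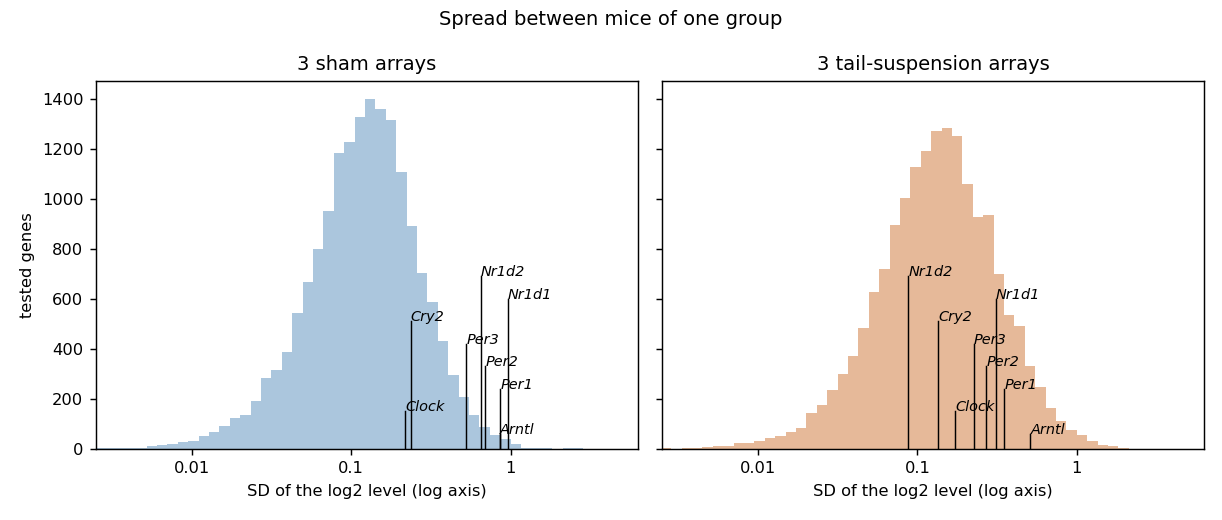
Histogram of the SD of the log2 level over the 3 arrays of a group (x axis, log scale) for all tested genes (y axis, number of genes), sham on the left and tail-suspension on the right, with clock loop genes marked. Arntl, Per1, Per2, Per3, Nr1d1 and Nr1d2 lie in the right tail in sham and closer to the bulk in tail-suspension.

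Sham 2 and sham 3 were at opposite ends for 2 of the 4 D-box factors, Dbp and Nfil3, compared with 34.2% of all tested genes. For Tef (5.99, 5.46 and 5.89 in sham) and Hlf (1.62, 0.89 and 1.56) sham 2 was the lowest sham array and sham 1 the highest. Dbp, a D-box activator driven by E-boxes, gave 4.30, 3.32 and 6.22 in sham and 5.11, 4.79 and 5.36 in tail-suspension. Nfil3, the D-box repressor, ran the other way, at 2.78, 3.15 and 1.37 in sham and at 2.15, 2.17 and 2.16 in tail-suspension. For both, the tail-suspension arrays lay inside the sham range, and the differences were 0.48 for Dbp and -0.28 for Nfil3 (adjusted p = 0.638 and 0.668 by limma). Without sham 3 Nfil3 fell by 0.81 (adjusted p = 0.0252 by limma) and Dbp differed by 1.28 without passing, and without sham 2 their differences turned to 0.083 and -0.17. Of the 4 D-box factors, Dbp, Tef, Hlf and Nfil3, none passed by limma, where 21.2% of all tested genes passed in either direction. At an unadjusted p under 0.05 the count was also 0, where 3235 of the 17140 tested genes were higher and 3509 lower.

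Ciart, listed on the array as Gm129 and encoding a repressor of the ARNTL pair, gave the widest values. It was well above background on sham 3 (-2.05) and on all tail-suspension arrays (-1.35, -1.61 and -0.37), and not on sham 1 and 2 (-6.62 and -6.60). The fitted difference of 3.98 rests on signals not well above background in these sham arrays and did not pass (adjusted p = 0.0617 by limma). Its size and its p are not measures of a change, and the difference was 1.28 under normexp. Its promoter is shown because it held 3 E-boxes, at -116, -58 and -44, more than any searched gene of the loop in these windows.
Ciart, chr3:95882259-95882358, minus strand: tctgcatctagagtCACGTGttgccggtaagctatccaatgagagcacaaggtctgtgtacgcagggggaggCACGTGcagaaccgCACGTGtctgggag

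Of 35 further genes of the clock pathway, 34 could be tested, of which 5 were higher and 2 lower, against the 10.6% and 10.5% of all genes given above, with a median difference of 0.05. Among the ROR activators, 1 of 3 rose: Rora, which competes with the REV-ERB proteins, went from 0.68, 0.50 and 0.55 in sham to 1.11, 1.05 and 1.11 in tail-suspension, a rise of 0.51 (adjusted p = 0.0134 by limma). Among the kinases, ligases and phosphatases of PER and CRY, 2 of 8 rose and 1 fell. Csnk1e, a kinase of PER, rose by 0.52 (adjusted p = 0.0175 by limma). Csnk2a1, a catalytic subunit of casein kinase II, fell by 0.42 (adjusted p = 0.0229 by limma) on its brightest probe. Its dimmer probes differed by -0.31, -0.32 and -0.38 (adjusted p = 0.0854, 0.0576 and 0.0496 by limma).

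Of 9 complex partners 1 was higher and 1 lower, a share near the 10.6% and 10.5% of all tested genes. Ep300, an acetyltransferase coactivator, rose by 0.49 (adjusted p = 0.0237 by limma), and Timeless fell by 0.63 (adjusted p = 0.0293 by limma) on the brighter of its probes and by 0.76 on the other. Gsk3b and Ncor1 did not pass on their brightest probe, but a dimmer probe of each did (-0.48 and -0.78). Of 6 clock-controlled genes outside the loop, only Klf15, a cardiac regulator of metabolism with an E-box promoter, passed. It gave 0.78, 0.09 and 0.91 in sham and 1.45, 1.60 and 1.58 in tail-suspension, 0.95 higher (adjusted p = 0.0284 by limma), and sham 2 was again the lowest array. Usp2, a deubiquitinase under clock control, was 0.62 higher and did not pass (adjusted p = 0.091 by limma), but did so without sham 3 (0.84, adjusted p = 0.0399 by limma). The calls of Rora, Csnk1e, Csnk2a1, Ep300, Timeless and Klf15 were each lost with at least 1 array left out. Without tail-suspension 3 none of them passed (adjusted p from 0.0527 for Rora to 0.086 for Klf15 by limma), without sham 2 Klf15 alone did, and without sham 1 or tail-suspension 1 Rora alone did. Without sham 3 Csnk2a1 and Timeless were lost, at adjusted p values of 0.0534 and 0.07 by limma, and without tail-suspension 2 Klf15 was, at 0.0596.

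Per1 answers to glucocorticoids, and 4 other genes known to be induced by them were all higher, where 10.6% of all tested genes were. These 4 were listed with earlier results of these data known, so their count is a description and not a test. Fkbp5, a co-chaperone of the glucocorticoid receptor, gave 0.47, 1.17 and 0.57 in sham and 3.75, 3.52 and 4.20 in tail-suspension, 3.08 higher (adjusted p = 0.00216 by limma). Zbtb16 was 2.48, Klf9 0.74 and Tsc22d3 0.63 higher, each with no overlap of the groups (adjusted p = 0.00261, 0.016 and 0.0246 by limma). Klf9 was lost without sham 1, sham 2 or tail-suspension 3 (adjusted p = 0.0539, 0.0506 and 0.0599 by limma) and Tsc22d3 without sham 1, sham 2, tail-suspension 1 or 3 (0.0764, 0.0909, 0.0571 and 0.0567), whereas Fkbp5 and Zbtb16 passed with each array left out. Sham 3 was the highest sham array for Klf9 and Tsc22d3, as for Per1 and Per2, and lay between the other sham arrays for Fkbp5 and Zbtb16. The part of glucocorticoids in the Per1 result was not tested.

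As a description over the 6 arrays, among 2349 genes well above background on all of them and ranging over at least 1 on the log2 scale, the levels most like those of Arntl were Prkag3 (r = 0.97), Vmn2r29 (r = 0.89) and Lrp11 (r = 0.89), and the most opposed were Frmd4b (r = -0.98), Kcne4 (r = -0.98) and Ammecr1 (r = -0.97). For Nr1d1, Bhlhe40, a bHLH repressor driven by E-boxes, was among the most alike (r = 0.91), beside the transcripts listed as ENSMUST00000098355 and ENSMUST00000100002, and Nfil3 was among the most opposed (r = -0.93), beside P2ry1 and NAP000003-013. Prkag3, Vmn2r29, Frmd4b, Kcne4 and both ENSMUST transcripts were dim, with levels between -4.56 (Vmn2r29) and -2.33 (Kcne4) on all arrays. The correlations come from 6 arrays of 2 groups and carry no test.

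**Figure D5:**
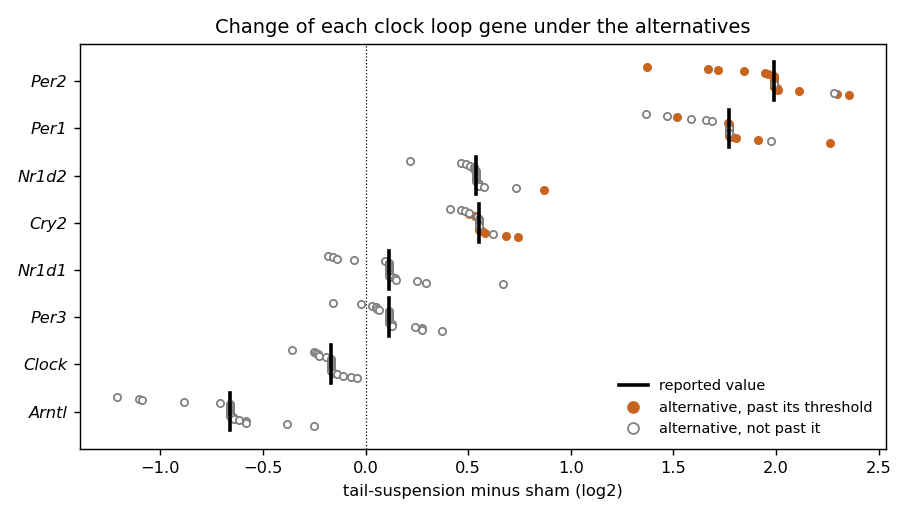
Log2 difference, tail-suspension minus sham (x axis), of each tested clock loop gene (y axis) in the reported fit (black line) and under 21 alternatives (points, orange where past the threshold). Per1 and Per2 lie above 1 under all of them, and Nr1d1 and Per3 scatter around 0.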

How the data were processed

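Cardiac RNA of 6 mice, 3 sham and 3 tail-suspended, was read on 1-colour arrays. The authors deposited files from Agilent Feature Extraction 10.7.1.1 (submitters' processing notes), with a processed intensity for each spot, and a table of log2 values for these arrays, whose columns share a median of 4.32 and whose normalization is not given in the sources used here. Control spots and outlier spots were left out here, each array's 75th percentile (302 to 376) was subtracted on the log2 scale, and probes that all arrays of sham or of tail-suspension measured well above background entered limma 3.58.1 in R 4.3.3, with Benjamini-Hochberg adjustment over 28032 probes and a threshold of 0.05. Between 50.9% and 53.4% of probes were well above background on an array and no spot was saturated. The brightest tested probe stood for its gene. Each clock gene probe had 1 spot, and probe coordinates are mm9. Precision is limited by the number of arrays, and the p-values measure the spread between these 6 mice.

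The steps were checked on simulated data. Named are all 10 loop genes, genes of the pathway lists and the genes most and least like Arntl and Nr1d1. The members and lists were chosen with earlier results of these data known. Alternatives covered background correction, normalization, filters, tests, blocks, probe choice and each array left out. Some genes of the lists count in the totals but are not reported here by name.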

Additional observations from a re-analysis of the deposited data

How the results depend on the processing

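Per2 was called in 19 of 21 alternatives (1.37 to 2.36 on the log2 scale), Per1 in 13 (1.37 to 2.27) and Cry2 in 11, all upward. The count of loop genes called higher, 3 as reported, was 1 without the filter on dim probes, 0 with the slide row as a block, 0 by the methods' t-test with Benjamini-Hochberg adjustment, and 1 to 3 with each array left out, while none was called lower. Further pathway genes called higher and lower, 5 and 2, became 0 and 0 without the filter, 0 and 0 with the row, 3 and 1 by the adjusted t-test, 0 and 0 with a 2-fold minimum, and 0 to 7 and 0 to 2 with arrays left out. Probes higher and lower, 3023 and 2683, became 1041 and 790 without the filter, 320 and 177 with the row, 1533 and 1250 by the adjusted and 4808 and 4690 by the unadjusted t-test, 757 and 460 with a 2-fold minimum, and 965 to 2932 and 726 to 2580 with arrays left out; array weights gave 4355 lower. Leaving out arrays uses fewer samples and dropping the filter tests more probes; otherwise the cause was not tested.

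Replicate numbers did not pair the mice (correlations of deviations -0.020, -0.018 and 0.049). The replicate block left 1714 probes higher and 1403 lower and 0 pathway genes lower, and Cry2 no longer passed (0.55, adjusted p = 0.0956 by limma).

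With the slide row as a block Nr1d1 turned to -0.16 and Bhlhe40 to -0.0066. Per3 turned to -0.023 under normexp, and Thra to 0.034 as the mean of its probes. With each array left out, Nr1d1 ranged from -0.18 to 0.67, Per3 from -0.16 to 0.37, Dbp from -0.17 to 1.28, Nfil3 from -0.81 to 0.083 and Bhlhe40 from -0.18 to 0.43. No weight is given to Ciart under any alternative, since 2 of its 3 sham signals were not well above background. The dim probes of Cry1 and Npas2 limit both genes to signals near background.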
